A study of Homo sapiens with 4 samples.

Results

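The 10 genes described here encode the core of the transforming growth factor β (TGF-β) pathway, and comprise 3 ligands (TGFB1, TGFB2 and TGFB3), 3 receptors (TGFBR1, TGFBR2 and TGFBR3) and 4 SMADs (SMAD2, SMAD3, SMAD4 and SMAD7). They were chosen by gene symbol from the 44591 genes of the files, of which 19233 are protein-coding, and each symbol had 1 entry. RNA-seq was performed on total RNA of untreated HaCaT cells in 4 replicates, labelled 1 to 4, which were grown with 12% fetal bovine serum according to the labels, while the study's methods give another percentage for HaCaT culture. HaCaT is a spontaneously immortalized line of human epidermal keratinocytes, so all 4 libraries come from a single line in culture. Since there is one condition, the comparisons are between genes within a replicate and between replicates. The study calls them biological repeats, but neither it nor the labels say that they were separate cultures, so part of the spread between them may be technical.

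A TGF-β ligand is secreted as a dimer bound to its own propeptide and is held in a latent form until it is released. The active dimer binds TGFBR2, which phosphorylates and activates TGFBR1, and TGFBR1 then phosphorylates SMAD2 and SMAD3. These pair with SMAD4 and act on transcription in the nucleus, while SMAD7 blocks the receptor complex and is itself switched on by the pathway. In the epidermis TGF-β is known for holding back keratinocyte growth and, in wounds, for favouring migration.

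The ligand genes have different sequence just upstream of their starts, shown here because their transcript levels are the most unequal among the 3 groups. The stretches are the 100 bases before a transcript start in RefSeq (GRCh38.p14), and capitals mark TATAAA or the GC box, GGGCGG, on either strand. TGFB1 is read on the minus strand from chr19:41353923-41354022, TGFB2 on the plus strand from chr1:218345236-218345335, and TGFB3, at the second of its listed starts, on the minus strand from chr14:75981996-75982095.
TGFB1: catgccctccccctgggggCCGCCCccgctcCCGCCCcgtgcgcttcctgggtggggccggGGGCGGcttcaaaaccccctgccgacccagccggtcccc
TGFB2: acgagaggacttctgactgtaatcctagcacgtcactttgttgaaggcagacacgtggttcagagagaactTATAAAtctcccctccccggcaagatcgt
TGFB3: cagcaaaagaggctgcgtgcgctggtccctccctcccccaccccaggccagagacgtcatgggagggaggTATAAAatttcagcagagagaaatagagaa
The TGFB1 stretch held 3 GC boxes and no TATAAA, and 80% of its bases were G or C. The TGFB2 stretch held TATAAA from position -29 and the TGFB3 stretch from position -30, counted back from the start, and neither had a GC box. The share of G and C was 49% for TGFB2 and 56% for TGFB3. The first listed start of TGFB3 (chr14:75983012-75983111) had neither motif, and the second was chosen for printing after the motif was seen. Of all 35116 RefSeq stretches of this length, 4.99% held TATAAA and 31.3% held a GC box, and the 2 motifs did not overlap in the stretches printed. All 10 genes matched RefSeq windows, 26 in number, with the receptors and SMADs not shown. The match of letters was not tested for function.

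Replicate 1 stood apart from the other libraries. It held 73082279 counts against 17056035 to 19745170, and protein-coding genes took 76.1% of its counts and 31.0% of its length-scaled counts, against 95.3% to 96.4% and 87.4% to 93.0% in the others. Levels are therefore given as transcripts per 1000000 (TPM) over protein-coding genes, computed from counts and gene lengths, and also as the mean of replicates 2 to 4. In bulk RNA, fewer cells of a type and less RNA per cell cannot be told apart. All 8 keratinocyte markers were detected, with a summed TPM of 9405 to 14353. The fibroblast list (2 of 7 detected, COL1A1 and LUM) summed to 5.20 to 9.70 TPM, the endothelial list (0 of 4) to 0.859 to 2.36, the melanocyte list (1 of 4, PMEL) to 1.36 to 3.52 and the leukocyte list (1 of 4, CD68) to 8.31 to 43.9. PECAM1, KDR, TYR and MS4A1 were at 0 in every library.

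All 10 genes were detected, that is, their mean TPM was above 1, compared with 63.3% of protein-coding genes. SMAD3 and TGFB1 were the highest, TGFBR2, SMAD2, SMAD7, SMAD4 and TGFBR1 lay close together near the median detected gene, and TGFB2, TGFBR3 and TGFB3 were low. With the deposited gene lengths, SMAD3 was the highest in 4 of 4 replicates. With the union of annotated exons as length it was the highest in 2 of 4, since TGFB1 was then above it in replicates 3 and 4, with SMAD3 at 0.942 and 0.948 times TGFB1. Without length correction it was the highest in 3 of 4, after SMAD2 in replicate 1. In single replicates, 8, 10, 8 and 10 of the genes were above 1 TPM in replicates 1 to 4. TGFB3 lay just inside the limit, with a mean of 1.03, and with replicate 2 left out 9 genes were detected.

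**Figure D1:**
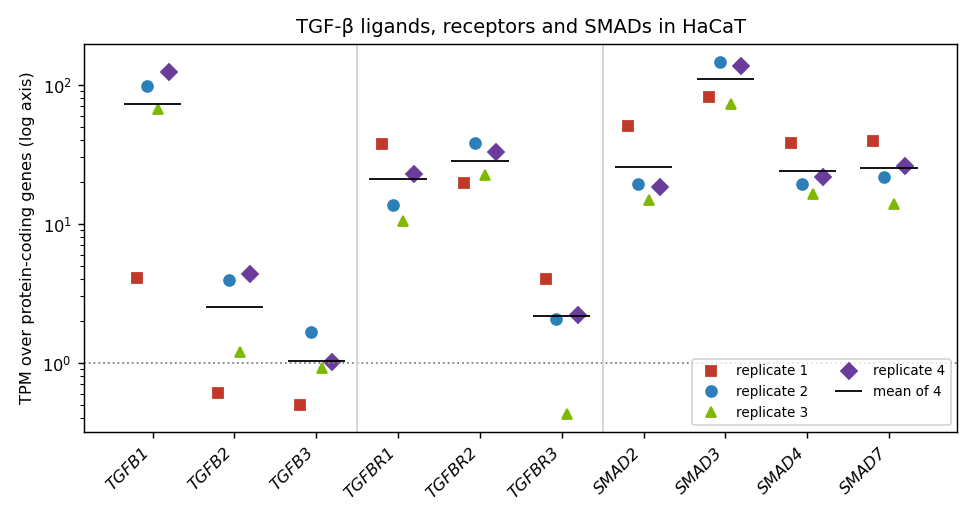
TPM over protein-coding genes of each gene (log axis) in replicates 1 to 4, with the mean of the 4 as a bar and the detection limit of 1 TPM as a dotted line. The TGFB1 point of replicate 1 is at 4.07 against 66.6 to 124 elsewhere, while SMAD3, with the deposited gene lengths, is the highest gene in every replicate.

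Among the ligands, TGFB1 was by far the most abundant in every replicate. TGFB1 (chr19:41836228-41859788, minus strand, hg19), the main isoform of most epithelia, had 271, 1782, 1642 and 2529 counts in replicates 1 to 4, or 4.07, 97.8, 66.6 and 124 TPM. Its mean was 73.1 ± 51.6 TPM (SD, n = 4), or 96.1 ± 28.6 (SD, n = 3) without replicate 1. Replicate 1 did not overlap the others, which were 23.6 times as high on average. The mean of TGFB1 exceeded 80.1% of detected protein-coding genes, but in replicate 1 its level exceeded 15.9% of them.

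TGFB2 (chr1:218518626-218617961, plus strand, hg19), the isoform that needs the co-receptor TGFBR3 most, had 89, 158, 65 and 194 counts, or 0.610, 3.96, 1.20 and 4.34 TPM. Its mean was 2.53 ± 1.89 TPM (SD, n = 4), or 3.17 ± 1.71 (SD, n = 3) without replicate 1. Replicates 2 and 4 were high and replicates 1 and 3 low, so TGFB2 varied also among the libraries of like depth, by 3.60 times. TGFB2 overlaps 2 other genes of the files, TGFB2-AS1 on the opposite strand (0 to 5 counts) and TGFB2-OT1 on the same strand (0, 23, 5 and 28 counts in replicates 1 to 4), and how shared reads were assigned is not given in the sources used here.

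TGFB3 (chr14:76424404-76449354, minus strand, hg19), an isoform known from palate fusion, was the lowest of the 10 genes. It had 48, 44, 33 and 30 counts, or 0.498, 1.67, 0.925 and 1.01 TPM, with a mean of 1.03 ± 0.483 (SD, n = 4) and, without replicate 1, 1.20 ± 0.405 (SD, n = 3). An unnamed gene on its opposite strand had 0 or 1 counts.

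TGFB1 made up 78.6%, 94.6%, 96.9% and 95.9% of the summed ligand TPM of replicates 1 to 4. The mean share was 91.5% ± 8.64 (SD, n = 4). The sum itself was 5.18, 103, 68.8 and 129 TPM, so replicate 1 was low in ligand transcripts as a whole. On the scale of log2(TPM + 1), TGFB1 exceeded TGFB2 by 3.86 ± 1.50 and TGFB3 by 4.51 ± 1.87 (SD, n = 4), and was above both in 4 of 4 replicates. TGFB2 exceeded TGFB3 by 0.65 ± 0.62 (SD, n = 4), in the same direction in 4 of 4 replicates. Counted per length, however, the ratio of TGFB2 to TGFB3 was 1.23 in replicate 1 (95% Clopper-Pearson interval 0.853 to 1.78) and 1.30 in replicate 3 (0.844 to 2.04). Their order was thus within counting error in these replicates. In replicates 2 and 4 the ratio was 2.37 (1.69 to 3.39) and 4.27 (2.90 to 6.51). These intervals cover counting error only.

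**Figure D2:**
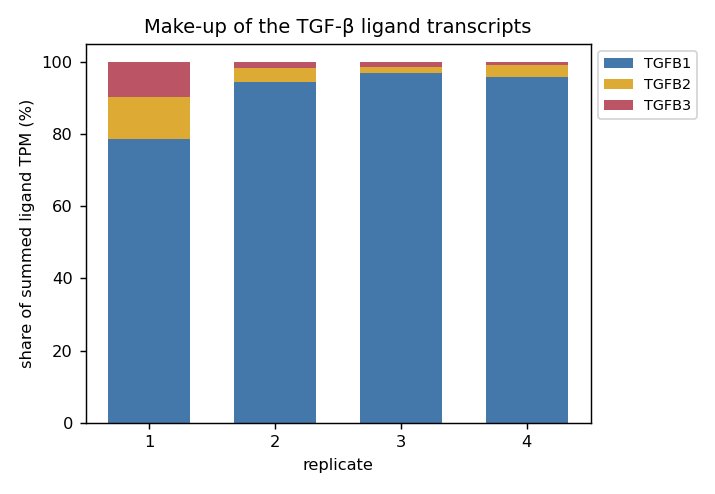
Share of the summed ligand TPM (percent) taken by TGFB1, TGFB2 and TGFB3 in replicates 1 to 4, with the stacked bars adding up to the whole. TGFB1 takes 78.6% of the first bar and 94.6% to 96.9% of the rest.

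For each of the 19 pairs of genes compared, the difference within replicates was tested with a two-sided exact sign-flip permutation test. In 10 pairs the direction was the same in 4 of 4 replicates, for which the exact p was 0.125, the smallest that 4 replicates allow, and 0.2375 after Benjamini-Hochberg adjustment over the 19 pairs. No pair could therefore reach 0.05, and the sizes and their spread are given instead.

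Of the signalling receptors, TGFBR2 was above TGFBR1 in replicates 2 to 4 and below it in replicate 1. TGFBR2 (chr3:30647994-30735634, plus strand, hg19), the type II kinase that binds the ligand, had 2248, 1200, 950 and 1144 counts, or 19.7, 38.4, 22.5 and 32.6 TPM. Its mean was 28.3 ± 8.73 TPM (SD, n = 4), or 31.2 ± 8.05 (SD, n = 3) without replicate 1. TGFBR1 (chr9:101867371-101916474, plus strand, hg19), the type I kinase that passes the signal to the SMADs, had 5953, 595, 610 and 1105 counts, or 37.5, 13.7, 10.4 and 22.7 TPM. Replicate 1 was the highest for TGFBR1 and the lowest for TGFBR2. The mean of TGFBR1 was 21.1 ± 12.1 TPM (SD, n = 4), or 15.6 ± 6.38 (SD, n = 3) without replicate 1. Per length, TGFBR2 had 0.524 times the reads of TGFBR1 in replicate 1 (95% Clopper-Pearson interval 0.499 to 0.550), whereas in replicate 2 it had 2.80 times (2.53 to 3.09), in replicate 3 2.16 times (1.95 to 2.40) and in replicate 4 1.44 times (1.32 to 1.56). The mean difference was 0.52 ± 1.02 on the log2 scale (SD, n = 4), less than its spread, and 0.99 ± 0.46 (SD, n = 3) without replicate 1.

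TGFBR3 (chr1:92145900-92371559, minus strand, hg19), also called betaglycan, is the co-receptor that presents ligand to TGFBR2. It had 659, 94, 26 and 112 counts, or 3.99, 2.08, 0.425 and 2.21 TPM, with a mean of 2.18 ± 1.46 (SD, n = 4) and, without replicate 1, 1.57 ± 0.995 (SD, n = 3). It lay below both kinases in 4 of 4 replicates, by 2.77 ± 0.35 for TGFBR1 and 3.29 ± 0.87 for TGFBR2 on the log2 scale (SD, n = 4). Both of these differences were larger than their spread. The summed receptor TPM was 61.2, 54.2, 33.3 and 57.6, a mean of 51.6 ± 12.5 (SD, n = 4) against 76.6 ± 53.7 for the ligand sum. Without replicate 1 the sums were 48.3 ± 13.1 and 100.5 ± 30.3 (SD, n = 3), with nearly the same spread relative to the mean.

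SMAD3 was the leading SMAD, and with the deposited gene lengths SMAD2, SMAD4 and SMAD7 could not be ordered. SMAD3 (chr15:67358195-67487533, plus strand, hg19), a receptor-activated SMAD that binds DNA directly, had 13054, 6450, 4351 and 6750 counts, or 81.1, 146, 73.1 and 137 TPM. Its mean was 109 ± 37.6 TPM (SD, n = 4), or 119 ± 39.9 (SD, n = 3) without replicate 1, and it exceeded 87.1% of detected protein-coding genes. Replicates 2 and 4 were high and replicates 1 and 3 low. SMAD2 (chr18:45359466-45457517, minus strand, hg19), the other receptor-activated SMAD of the pathway, had 13152, 1376, 1439 and 1468 counts, or 50.2, 19.2, 14.9 and 18.3 TPM. Its mean was 25.6 ± 16.5 TPM (SD, n = 4), and without replicate 1, which on this scale stood well above the others, 17.5 ± 2.29 (SD, n = 3). An unnamed gene within SMAD2 on the same strand had 0 to 40 counts.

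SMAD3 exceeded SMAD2 by 2.15 ± 1.02 on the log2 scale (SD, n = 4), in 4 of 4 replicates. Per length, SMAD3 had 1.61 times the reads of SMAD2 in replicate 1 (95% Clopper-Pearson interval 1.58 to 1.65), against 7.63 times (7.19 to 8.09) in replicate 2. The ratio was 4.92 (4.63 to 5.22) for replicate 3 and 7.48 (7.07 to 7.92) for replicate 4. The interval of replicate 1 overlapped no other. SMAD3 thus took 61.8%, 88.4%, 83.1% and 88.2% of the summed TPM of SMAD2 and SMAD3. The size of this difference depends on the length used for SMAD2, 10775 bp in the files. With the union of annotated exons as length, SMAD3 minus SMAD2 was 3.37 ± 1.00 on the log2 scale (SD, n = 4), and with the longest coding transcript it was 3.79 ± 0.98.

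SMAD4 (chr18:48556583-48611412, plus strand, hg19), the common partner of the receptor-activated SMADs, had 8093, 1124, 1281 and 1417 counts, or 38.0, 19.3, 16.2 and 21.7 TPM. Its mean was 23.8 ± 9.71 TPM (SD, n = 4), or 19.1 ± 2.72 (SD, n = 3) without replicate 1. SMAD7 (chr18:46446223-46477081, minus strand, hg19), the inhibitory SMAD, had 3313, 495, 432 and 665 counts, or 39.6, 21.6, 14.0 and 25.9 TPM. Replicate 1 was above the others for both genes. The mean of SMAD7 was 25.3 ± 10.8 TPM (SD, n = 4), or 20.5 ± 6.06 (SD, n = 3) without replicate 1. SMAD3 lay above SMAD4 by 2.16 ± 0.79 and above SMAD7 by 2.10 ± 0.74 on the log2 scale (SD, n = 4), in 4 of 4 replicates.

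The differences among SMAD2, SMAD4 and SMAD7 were smaller than their spread. They were 0.01 ± 0.27 for SMAD2 minus SMAD4, -0.06 ± 0.35 for SMAD2 minus SMAD7 and 0.06 ± 0.20 for SMAD7 minus SMAD4 on the log2 scale (SD, n = 4). SMAD2 was above SMAD4 in 1 of 4 replicates, replicate 1. These differences depend on the gene lengths. With the union of annotated exons, SMAD2 minus SMAD4 was -1.09 ± 0.25 and SMAD2 minus SMAD7 -1.18 ± 0.33 (SD, n = 4), and with the longest coding transcript they were -1.54 ± 0.23 and -1.26 ± 0.32, so SMAD2 then lay below both genes by more than the spread. The summed SMAD TPM was 209, 207, 118 and 203 in replicates 1 to 4, so it was low in replicate 3 only.

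**Figure D3:**
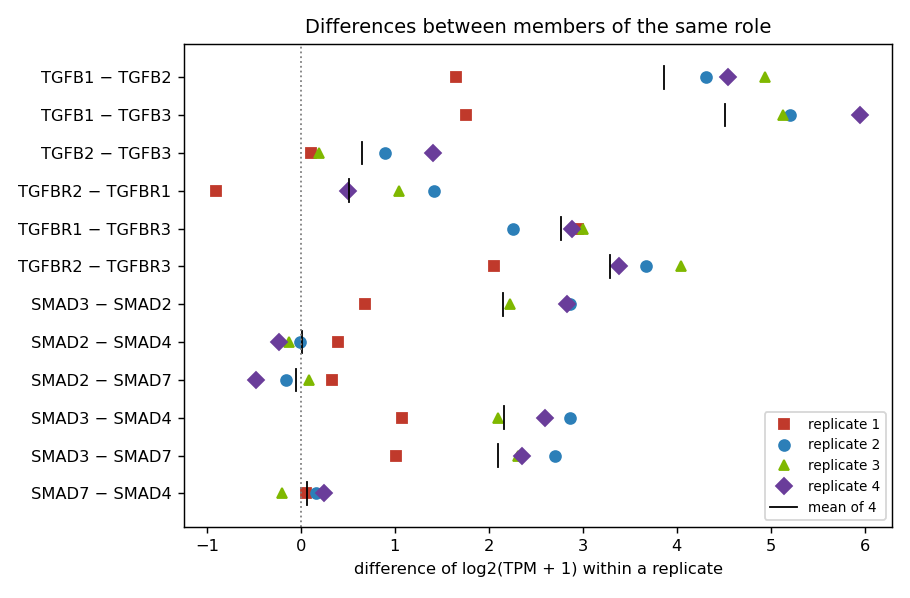
Difference of log2(TPM + 1) within a replicate for each pair of ligands, of receptors and of SMADs, with points for replicates 1 to 4, a bar for their mean and a dotted line at no difference. TGFB1 exceeds TGFB2 and TGFB3, and SMAD3 exceeds the other SMADs, in every replicate, while SMAD2, SMAD4 and SMAD7 scatter about 0 with the deposited gene lengths plotted here.

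In the order of mean TPM (SMAD3, TGFB1, TGFBR2, SMAD2, SMAD7, SMAD4, TGFBR1, TGFB2, TGFBR3, TGFB3), 1 of the 9 pairs of neighbours differed by more than its spread. This was TGFBR1 over TGFB2, by 2.67 ± 1.32 on the log2 scale (SD, n = 4), which splits the 7 higher from the 3 lower genes. SMAD3 and TGFB1 differed by 1.22 ± 1.88 (SD, n = 4) in the same direction in 4 of 4 replicates, and nearly all of this came from replicate 1. Per length, SMAD3 had 19.9 times the reads of TGFB1 in replicate 1 (95% Clopper-Pearson interval 17.7 to 22.6), but 1.50 times (1.42 to 1.58) in replicate 2. The ratio was 1.10 (1.04 to 1.16) for replicate 3 and also 1.10 (1.06 to 1.16) for replicate 4. The other neighbours differed by 0.68 ± 1.82 (TGFB1 minus TGFBR2), 0.26 ± 1.06 (TGFBR2 minus SMAD2), 0.25 ± 0.33 (SMAD4 minus TGFBR1), 0.10 ± 1.16 (TGFB2 minus TGFBR3) and 0.55 ± 0.91 (TGFBR3 minus TGFB3). Without replicate 1 (n = 3), SMAD3 minus TGFB1 was 0.28 ± 0.25, TGFB1 minus TGFBR2 1.58 ± 0.29 and TGFBR2 minus SMAD2 0.78 ± 0.20. TGFB2 minus TGFBR3 was then 0.68 ± 0.05 and TGFBR3 minus TGFB3 0.15 ± 0.56. Of the 9 pairs of neighbours, 5 differed by more than their spread in this setting. The spread of 0.05 is small because 1 TPM was added to low levels before the logarithm. Counts per length put TGFB2 at 1.90, 2.83 and 1.96 times TGFBR3 in replicates 2, 3 and 4. The value for replicate 3 rests on 65 counts of TGFB2 and 26 of TGFBR3. In replicates 2 to 4 the order began with SMAD3, TGFB1 and TGFBR2 each time, whereas in replicate 1 SMAD3 was followed by SMAD2 and SMAD7, and TGFB1 came at position 7.

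Replicate 1 was below the mean of the others for the 3 ligands, TGFBR2 and SMAD3, and above it for the other 5 genes. On the scale of log2(TPM + 1), replicate 1 minus the mean of replicates 2 to 4 was -4.22 for TGFB1, -1.27 for TGFB2 and -0.54 for TGFB3. It was 1.28 for TGFBR1, -0.61 for TGFBR2 and 1.05 for TGFBR3, and 1.48 for SMAD2, -0.48 for SMAD3, 0.97 for SMAD4 and 0.96 for SMAD7. A difference of more than 1 on this scale is 2-fold in TPM + 1, and counts of 2-fold changes in replicate 1 are meant so. It was seen upward in 3 of 10 genes, where 17.4% of detected protein-coding genes passed. Downward it was seen in 2 of 10, where 20.1% passed. These shares are near the background, and 1 library has no replicate check. For TGFB3 the mean TPM of replicates 2 to 4 was 2.42 times that of replicate 1, yet it did not pass on this scale. The upward differences hold relative to protein-coding genes only. With TPM over all genes, where the median difference of detected protein-coding genes in replicate 1 was -1.27, the difference was -0.18 for TGFBR1, -0.03 for TGFBR3 and -0.00093 for SMAD2, and none of the 10 genes was more than 2-fold up while 4 were more than 2-fold down (TGFB1, TGFB2, TGFBR2 and SMAD3). On that scale 238 detected protein-coding genes were up and 7453 down, against 2115 and 2451 of 12165 on the protein-coding scale. Being down there was thus common. With TPM over all genes, replicate 1 was above every other replicate in 0 genes, against 5 on the protein-coding scale, and SMAD2 had a mean of 15.6 ± 1.90 TPM, TGFBR1 13.5 ± 5.26, TGFBR3 1.38 ± 0.754 and SMAD4 15.8 ± 3.63 (SD, n = 4). On the protein-coding scale with replicate 4 left out, 5 of the 10 genes passed upward, and with replicate 3 left out, 2 did. Of all detected protein-coding genes, 2431 and 1660 passed in these 2 settings. For TGFB1 the difference was among the lowest 0.863% of detected protein-coding genes.

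Base composition went with these differences. Across 11889 detected protein-coding genes with a known transcript, the Spearman correlation of GC content with the difference of replicate 1 was -0.51, as a description across genes of the same libraries. The GC content of the longest coding transcript was 63.5% for TGFB1, 58.7% for SMAD7 and 53.2% for TGFB3, and between 38.9% and 50.4% for the others, with a median of 49.1% over the detected genes. Relative to genes of like GC content (20 bins, added after seeing the data), the difference of replicate 1 was -3.48 for TGFB1, -2.05 for TGFB2, 1.57 for SMAD7, 0.50 for TGFBR1 and 0.78 for SMAD2. SMAD7 was then the only one of the 10 genes more than 2-fold up, while TGFB1 and TGFB2 stayed more than 2-fold down. Among all detected protein-coding genes, 1414 were up and 1852 down after this centring. What part GC content has in the differences was not tested.

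**Figure D4:**
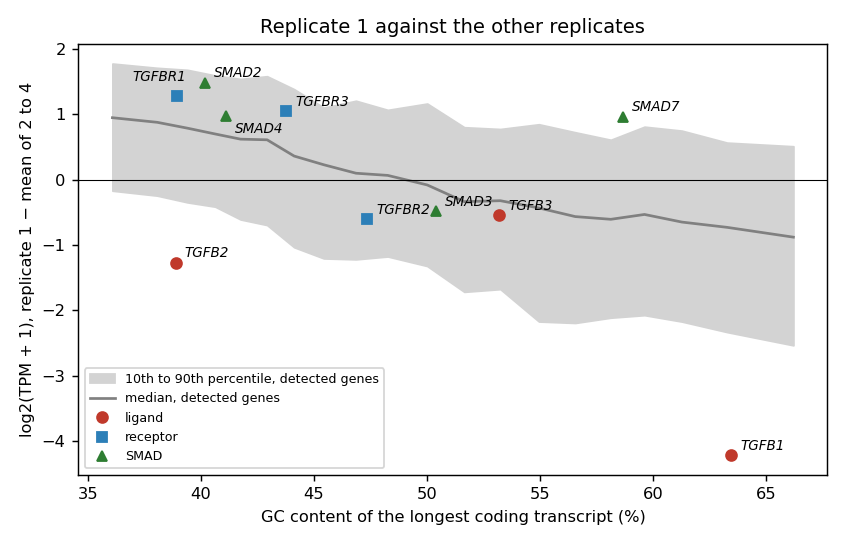
Difference of log2(TPM + 1) between replicate 1 and the mean of replicates 2 to 4 against the GC content of the longest coding transcript (percent), for the 10 genes by role, with the median (line) and the 10th to 90th percentile (band) of detected protein-coding genes in 20 bins. TGFB1 and TGFB2 lie below the band, SMAD7 lies above it and the other genes lie within it.

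Replicate 3 was the lowest of replicates 2 to 4 in 10 of 10 genes, where 60.0% of detected protein-coding genes had it lowest. Gene length went with this. Of the 4058 detected genes of at least 4309 bp, 85.3% were lowest in replicate 3, against 47.4% of the shorter ones, and the 10 genes had a median length of 6266 bp against 3276 bp over all. With size factors in place of TPM, 7 of 10 were lowest in replicate 3, against 40.7% of detected genes. The highest of replicates 2 to 4 was over 2 times the lowest in 4 of 10 genes (TGFB2, TGFBR1, TGFBR3 and SMAD3), where 30.3% of detected genes varied as much.

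The other genes of the pathway were read from 6 lists of 12 genes each, and 53 of 72 were detected. Of these 53, 13 were more than 2-fold up and 17 more than 2-fold down in replicate 1, or 24.5% and 32.1%, where 17.4% and 20.1% of all detected protein-coding genes were. The counts up and down in replicate 1 of each list are to be read against these shares, and they hold on the protein-coding scale. In the list for the latent complex and its activation, 8 of 12 were detected, 3 up and 4 down in replicate 1, with a median level of 24.1 TPM over the list. THBS1, thrombospondin-1, which can release latent TGF-β, had 48.6, 465, 287 and 328 TPM in replicates 1 to 4. FURIN, the protease that cleaves the propeptide, had 50.8, 201, 148 and 193 TPM. LTBP3, a binding protein of the latent complex, had 11.4, 88.6, 42.9 and 93.9 TPM, so all 3 were lowest in replicate 1, as TGFB1 was. ITGAV, a subunit of the integrins that activate latent TGF-β, had 82.3, 33.0, 17.9 and 62.1 TPM and was highest there.

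Of the other ligands of the superfamily, 5 of 12 were detected, 1 up and 2 down, with a median of 0.749 TPM. BMP7, a bone morphogenetic protein, had 89.9 TPM in replicate 1 and 13.0, 8.78 and 7.76 in the others, while BMP4 had 6.15 in replicate 1 and 33.3, 27.8 and 19.7 in the others. Thus 2 ligands of the same branch moved in opposite directions in that library. BMP2 (15.8, 19.1, 12.5 and 19.4 TPM) and INHBA, the activin A subunit (7.44, 22.2, 6.86 and 12.1 TPM), were within 2-fold. By mean level, TGFB1 was above each of the 12, but in replicate 1, at 4.07 TPM, it was below BMP7, BMP2, INHBA and BMP4.

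Of the other receptors, 8 of 12 were detected, 2 up and 1 down, with a median of 3.75 TPM. CD109, a co-receptor that restrains TGF-β signalling in keratinocytes, had 90.4, 49.6, 25.0 and 71.9 TPM, more than any of the 3 TGF-β receptors in each replicate. BMPR1A, a type I receptor for BMPs, had 48.8, 19.0, 16.6 and 23.5 TPM and, as TGFBR1, was highest in replicate 1. ACVR1B, the type I activin receptor, had 15.6, 31.3, 16.6 and 23.7 TPM, and BMPR2, the type II BMP receptor, 14.7, 11.7, 5.65 and 18.2 TPM.

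Of the other SMADs, adaptors and nuclear partners, 11 of 12 were detected, 3 up and 2 down, with a median of 22.4 TPM. FKBP1A, which binds type I receptors and keeps them silent, had 136, 448, 418 and 353 TPM and was above SMAD3 in each replicate. STRAP, a partner of the receptors, had 95.2, 138, 139 and 158 TPM. SMAD6, the other inhibitory SMAD, had 75.5, 19.7, 13.2 and 47.1 TPM and was highest in replicate 1, as SMAD7 was. SKI, a corepressor of the SMADs, had 6.22, 50.3, 36.7 and 48.7 TPM and was lowest there.

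Of the negative regulators, 10 of 12 were detected, 2 up and 3 down, with a median of 18.5 TPM. FST, follistatin, which traps activins, had 23.5, 173, 94.6 and 47.9 TPM. The ubiquitin ligases WWP1 (57.6, 38.9, 23.9 and 50.1 TPM) and SMURF1 (27.8, 37.5, 24.8 and 32.2 TPM) stayed within 2-fold in replicate 1. PMEPA1, an inhibitor that the pathway induces, had 8.55, 42.9, 31.9 and 60.6 TPM, so it was down in replicate 1.

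Of the genes known to be induced by TGF-β, 11 of 12 were detected, 2 up and 5 down, with a median of 36.5 TPM. TGFBI, an extracellular matrix protein named for its induction by TGF-β, had 469, 531, 354 and 978 TPM. JUNB, a transcription factor, had 282, 349, 333 and 562 TPM, and CDKN1A, the cell cycle inhibitor p21, had 121, 137, 77.5 and 93.8 TPM. These 3 differed by less than 2-fold in replicate 1. FN1, fibronectin, had 6.85 TPM in replicate 1 and 169, 140 and 401 in the others. The 2 that were up in replicate 1 were COL7A1 and CDKN2B, with log2 differences of 1.15 and 1.51, and those down included FN1 (-4.76), CYR61 (-4.11), CTGF (-2.17) and SNAI2 (-1.04). Of these, all but FN1 were named after their values were seen.

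**Figure D5:**
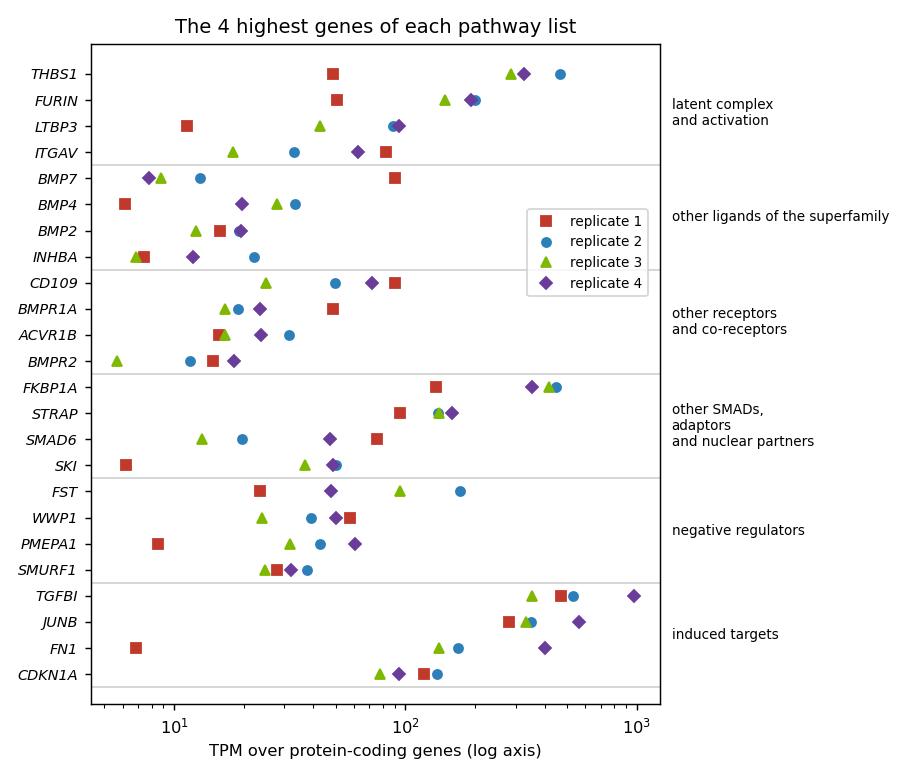
TPM over protein-coding genes (log axis) in replicates 1 to 4 of the 4 genes with the highest mean in each of the 6 pathway lists. Replicate 1 is lowest for THBS1, FURIN, LTBP3, BMP4, ACVR1B, FKBP1A, STRAP, SKI, FST, PMEPA1, JUNB and FN1, and highest for ITGAV, BMP7, CD109, BMPR1A, SMAD6 and WWP1.

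The genes whose profile over the 4 replicates was nearest to that of the leading ligand, receptor and SMAD were found among all detected protein-coding genes, as the root mean square difference of log2(TPM + 1) after centring. For TGFB1 these were RAB4B (0.102), GPRC5B (0.106) and PCDHGB6 (0.142). GPRC5B had 0.196, 20.1, 16.5 and 26.7 TPM, and RAB4B was at 0 in replicate 1. TGFB1 was at 4.07 TPM there, so both fell relatively further than TGFB1, a gap that the added 1 TPM narrows. For TGFBR2 they were TSKU (0.015), DUSP16 (0.020) and ARAP1 (0.031). For SMAD3 they were CDH3 (0.012), PLEKHG6 (0.028) and FBLIM1 (0.038). Within 0.25 lay 24 genes for TGFB1, 1160 for TGFBR2 and 800 for SMAD3. A near match to TGFBR2 or SMAD3 was thus common and not particular to the genes named. CDH3, a cadherin of basal keratinocytes, had 218, 399, 196 and 365 TPM. Its order of replicates is that of SMAD3, which follows from its choice as the nearest profile.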

How the data were processed

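Total RNA of HaCaT cells was extracted with Trizol, treated with DNase I and sequenced on libraries of a standard Illumina protocol, per the labels. The submitters' processing notes name HISAT2, HISAT, TopHat2, Bowtie2 and hg19, without roles. The counting program, annotation, strandedness and RNA selection are not given in the sources used here. The authors deposited raw counts and a length per gene for each replicate, with RPKM in replicates 1 and 2 and TPM in replicates 3 and 4. Since these units differ, counts per length were scaled to 1000000 over protein-coding genes in every replicate, which gave the TPM used here.

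Total counts were 73082279, 17056035, 19745170 and 19083836. Differences were taken as log2(TPM + 1), a scale that understates the change of low genes, and their signs were flipped in an exact permutation test, two-sided. For ratios of counts, 95% Clopper-Pearson intervals were computed. They leave out any error beyond counting, and without molecular identifiers a read is not an independent molecule. GC content and alternative lengths came from GENCODE release 29, and promoter stretches from RefSeq.

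The genes and lists were chosen with earlier results of these data known. All 10 genes were named, and in each pathway list the 4 with the highest mean TPM, besides the 3 nearest profiles of the leading ligand, receptor and SMAD. Alternatives were TPM over all genes, size factors, the upper quartile, other lengths, no length correction, the deposited values, other pseudocounts and detection limits, no filter on low values, and leaving out each replicate. The longest coding transcript as length, the GC bins, the lowest replicate of 2 to 4, the highest gene per setting and the difference of replicate 1 over all genes were added after seeing the data. The functions were tested on simulated data. The tools were SciPy 1.17.1, pandas 2.3.3 and NumPy 2.4.6 under Python 3.11.15, with matplotlib 3.10.9 for plots. The values of 1 gene of the pathway lists are not reported here.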

Additional observations from a re-analysis of the deposited data

Results flagged for a closer look

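Among 54 sets of 4 values, covering levels, shares and differences, 7 had a replicate whose gap to its nearest neighbour exceeded Dixon's 95% critical share of the whole range, where chance gives about 1 in 20 sets, or 2.7. The sets share genes and libraries, and several flags use the same TGFB1 value of replicate 1. The sets are thus not independent, and 7 cannot be read as an excess over 2.7. Of the 7 sets, 6 were in replicate 1. On the protein-coding scale, SMAD2 was highest there at 50.2 TPM, and BMP7 at 89.9 TPM. With TPM over all genes, SMAD2 had 15.5, 17.0, 13.0 and 17.0 in replicates 1 to 4, so replicate 1 did not stand apart. The share of TGFB1 in the ligand TPM was lowest there at 78.6%. In the same replicate, 3 differences between neighbouring genes stood apart on the log2 scale. SMAD3 minus TGFB1 was 4.02, TGFB1 minus TGFBR2 was -2.03 and TGFB2 minus TGFBR3 was -1.63. The remaining set was in replicate 2, where TGFBR1 minus TGFBR3 was lowest at 2.26. This flag depends on the 1 TPM added before the logarithm. Per length, TGFBR1 had 9.41, 6.60, 24.4 and 10.3 times the reads of TGFBR3 in replicates 1 to 4. By these ratios replicate 3, with 26 counts of TGFBR3, lay furthest from the rest.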

How the results depend on the processing

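Of 247 recomputed mean differences between genes, over 13 settings, 233 kept their direction and 14 were reversed. Other scalings, the deposited values and other pseudocounts treat both genes of a pair alike. They cannot change the direction within a replicate, so their agreement is no evidence of stability. All 14 reversals came with other lengths, no length correction or a replicate left out. In all, 12 of the 19 pairs were reversed under no setting. These 12 include all pairs of TGFB1 with TGFB2 and TGFB3, of SMAD3 with the other SMADs and of the receptors with each other. Only the sign of the mean was compared, and single replicates could differ. TGFBR2 minus TGFBR1 was negative in replicate 1, and its mean was 0.07 ± 1.04 (SD) without length correction. SMAD2 was above SMAD3 in replicate 1 under that setting. With the union of annotated exons as length, SMAD2 minus SMAD4 was -1.09 and SMAD4 minus TGFBR1 -0.24, and the levels of TGFB2 and TGFBR2 moved to 4.55 and 44.4 TPM, those of SMAD2 and TGFBR1 to 12.2 and 32.04. SMAD3 was then the highest gene in 2 of 4 replicates. With the longest coding transcript, SMAD2 minus SMAD4 was -1.54 and SMAD7 minus SMAD4 -0.28, and the levels of TGFB3 and SMAD2 moved to 1.69 and 8.51 TPM. Without length correction, SMAD2 minus SMAD7 was 1.56, SMAD7 minus SMAD4 -1.26, TGFB1 minus TGFBR2 -0.086, TGFBR2 minus SMAD2 -0.91 and TGFB2 minus TGFBR3 -0.0096. Leaving out each replicate in turn gave -0.12 to 0.090 for SMAD2 minus SMAD4, with the lowest value without replicate 1, -0.10 to 0.68 for TGFB2 minus TGFBR3, positive without replicate 1 only, and -0.19 to 0.086 for SMAD2 minus SMAD7, positive without replicate 4 only. The number of genes more than 2-fold up in replicate 1 was 3, with 1 after centring on GC content and 2 to 5 with a replicate left out, 5 of them without replicate 4. With TPM over all genes it was 0, with 4 down against 2, replicate 1 was above every other replicate in 0 genes against 5, and the differences of replicate 1 were -0.18 for TGFBR1, -0.032 for TGFBR3 and -0.00093 for SMAD2. Of all detected protein-coding genes, 238 were then up and 7453 down, against 2115 and 2451. With a pseudocount of 0.1, 3 of the 10 genes were down, against 2, since TGFB3 passed at -1.08. Of all detected protein-coding genes, 2696 were down with that pseudocount, 1414 were up after centring on GC content and 1660 to 2431 were up with a replicate left out. At a limit of 0.1 TPM, 10 of the other ligands of the superfamily were detected, against 5. Between 9 and 10 genes were detected under every setting tried. The lengths and scalings were changed one at a time, and the cause of each shift other than the length itself was not tested.

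The deposited RPKM and TPM were compared between genes within replicates, and no mean level was taken across these units. The differences within replicates were averaged over the 4 replicates, so with the added pseudocount these means mix the 2 units. No paired comparison of conditions was possible because there is 1 group, and the pairing used was of genes within a replicate. TGFB3 had 30 to 48 counts, and its order with TGFB2 was within counting error in replicates 1 and 3. TGFBR3 and TGFB3 differed beyond counting error in 3 of 4 replicates, but in opposite directions, with TGFBR3 at 8.01 times TGFB3 in replicate 1, 0.460 in replicate 3 and 2.18 in replicate 4.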
